A study of Drosophila melanogaster with 9 samples.

Results

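The genes examined here supply and assemble chromatin: Slbp, Caf1-180, Caf1-105, asf1, His2Av, His3.3A and His3.3B. They were chosen by symbol as the 7 genes of that role out of 17493 genes in the count table, and all 7 passed the filter on low counts that left 9231 genes for testing. RNA was sequenced from S2-DGRC cells, a cultured embryonic line of Drosophila melanogaster with some traits of blood cells, 96 h after double-stranded RNA (dsRNA) was added. The groups, with 3 biological replicates each, were cells treated with GFP dsRNA, a neutral dsRNA without a fly target that left the cells in mitotic cycles, with CycA dsRNA against Cyclin A, and with Myb dsRNA against the Myb subunit of the Myb-MuvB transcription complex. Both CycA dsRNA and Myb dsRNA make induced endoreplicating cells (iECs), which copy their genome without dividing and become polyploid. The sample labels give 12% serum for all 9 libraries, whereas the methods give 10% for S2 cells and 12% for iECs, so a difference in serum could not be told apart from the knockdowns.

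Chromosome duplication needs new histones as well as new DNA. The mRNAs of the replication-dependent histone genes end in a stem-loop instead of a poly(A) tail, and Slbp binds that stem-loop so that the mRNA is processed, exported and translated. The chaperone Asf1 hands H3-H4 dimers to chromatin assembly factor 1 (CAF-1), which places them on DNA behind the replication fork. The variant histones H2Av and H3.3 come from genes outside the histone cluster with polyadenylated mRNAs and can be placed in chromatin outside S phase. The comparison of the 2 kinds of iECs with mitotic cycling cells asks how far this supply line changes when division stops while DNA replication goes on.

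After Myb knockdown, the Myb dsRNA libraries lay above all control libraries for each of the 7 genes, where the groups were also apart for 64.3% of all genes tested, in either direction. Of the 7 genes, 3 were upregulated and 0 downregulated, in a comparison where 14.9% of all genes tested were upregulated and 6.78% downregulated. The 3 were Caf1-180 (2.15-fold), Caf1-105 and asf1. After CycA knockdown 0 of the 7 were upregulated and 2 downregulated, against 21.2% and 14.1% of all genes tested. Slbp fell by 41.9% and His2Av fell by 29.8%, while His3.3B, the more abundant of the 2 genes for H3.3, lay close to its control level. Directly compared, 5 of the 7 were called lower in CycA dsRNA iECs than in Myb dsRNA iECs and 0 higher, where 14.5% of all genes tested were called lower and 15.4% higher.

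Levels are given as CPM, the counts of a gene per 1000000 counts of its library, after scaling of the libraries by the trimmed mean of M-values (TMM). Such values are shares of the mRNA of a culture, and fewer cells with a transcript and less of it per cell cannot be told apart. A gene was called upregulated or downregulated where its log2 fold change was 0.5 or more in either direction and its adjusted p lay under 0.05 in the edgeR quasi-likelihood test, adjusted over all 9231 genes by the Benjamini-Hochberg method. All adjusted p-values below come from that test unless another is named. The comparisons with GFP dsRNA share its 3 libraries.

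The libraries held 29128930 to 44280452 counts. Each knockdown was visible in its own target, with CycA at 181 to 187 CPM in control libraries and 24.1 to 43.2 CPM in CycA dsRNA libraries, and Myb at 203 to 224 CPM and 12.8 to 15.2 CPM in control and Myb dsRNA libraries. Of 8 blood cell markers, 7 passed the filter, and their summed level was 654 to 741 CPM in control, 1037 to 1097 CPM in CycA dsRNA and 788 to 843 CPM in Myb dsRNA libraries, nearly all from srp, crq, ush and Pxn, with Hml, NimC1 and lz close to 0. CycA knockdown called Sr-CI (log2 fold change 1.87), NimC1 (1.18), crq (1.17) and ush (0.55) higher, and Myb knockdown called Sr-CI (0.59) and ush (0.54) higher. Of 7 markers of nerve, muscle, germ line and heart, 5 passed, and their summed levels of 30.9 to 37.1, 45.6 to 52.0 and 43.0 to 46.5 CPM came mostly from elav, which was not called. CycA knockdown called Mhc (3.02), nSyb (1.08) and the germ line gene vas (1.06) higher, and Myb knockdown called nos (1.72), also of the germ line, Mhc (1.67), vas (1.011) and nSyb (0.90) higher, all from low levels. Both sums thus moved with the groups, and their part in the results was not tested. Among control libraries the second stood apart in the trend of its deviations with gene length (Spearman correlation across genes of -0.52, against 0.44 and 0.25 for the other control libraries).

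**Figure D1:**
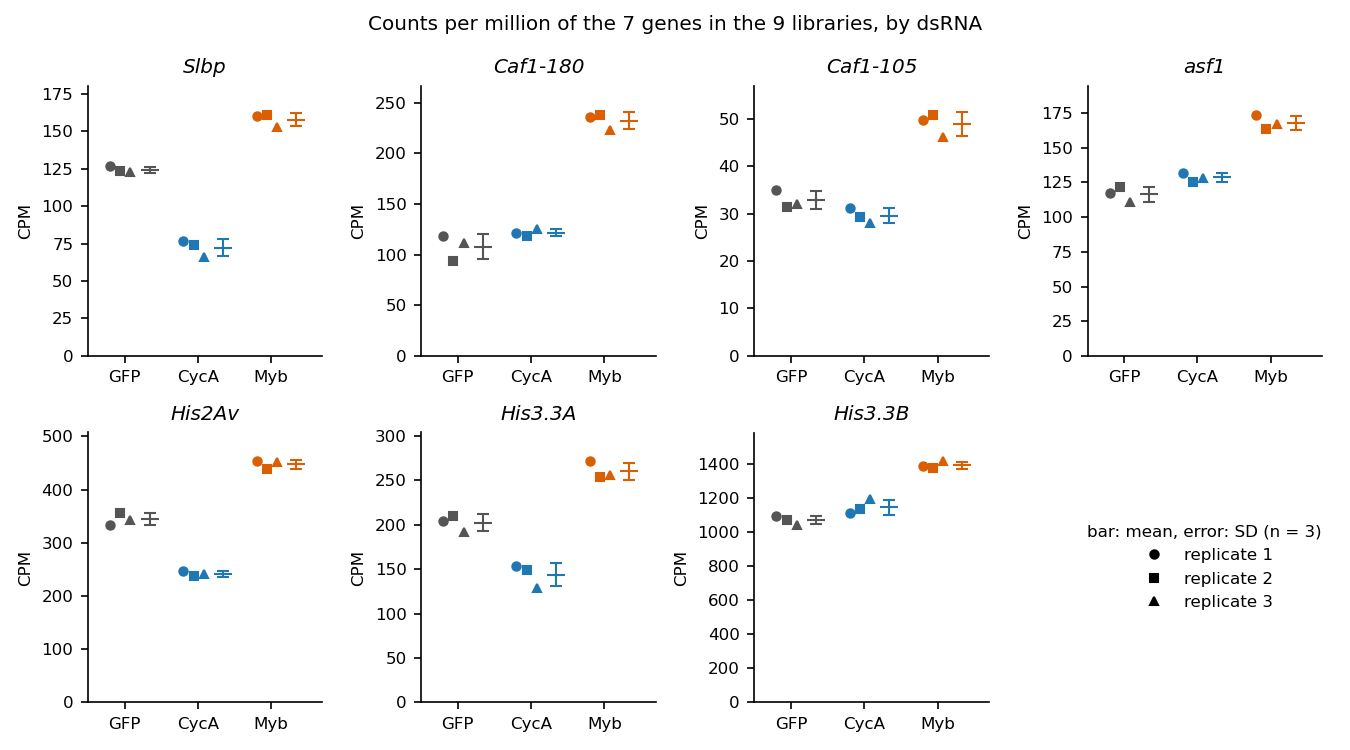
CPM of each gene (vertical axes, linear, starting at 0) in the 3 libraries of GFP, CycA and Myb dsRNA cells, with replicates 1, 2 and 3 as circles, squares and triangles and the mean with its SD (n = 3) beside them. The Myb dsRNA libraries are the highest in each panel, and the CycA dsRNA libraries are the lowest for Slbp, Caf1-105, His2Av and His3.3A.

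Slbp (FBgn0041186) lies on chromosome 3R from 29152074 to 29153266, on the minus strand, and has 1 annotated transcript. Control libraries held 127, 123 and 123 CPM of its mRNA (124 ± 2.13, mean ± SD, n = 3), CycA dsRNA libraries held 76.7, 74.3 and 65.8 CPM (72.3 ± 5.75, n = 3), and Myb dsRNA libraries held 159.9, 161 and 153 CPM (158 ± 4.49, n = 3). The groups did not overlap, with CycA dsRNA lowest, Myb dsRNA highest, and the third CycA dsRNA library below the other two. Slbp was downregulated in CycA dsRNA iECs by 0.78 on the log2 scale (log2 fold change -0.78, SE 0.053, adjusted p = 7.67e-09), the largest fall among the 7 genes. In Myb dsRNA iECs its log2 fold change was 0.34 (SE 0.051, adjusted p = 5.6e-05), in the opposite direction and under the fold threshold. The direct comparison of the iECs gave a log2 fold change of -1.13 (SE 0.053, adjusted p = 1.68e-10), again the largest of the 7.

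CAF-1 has a large, a middle and a small subunit, encoded by Caf1-180, Caf1-105 and Caf1-55. Caf1-180 (FBgn0030054, chromosome X, 8602137 to 8606304, minus strand) was at 118, 94.1 and 112 CPM in control libraries (108 ± 12.4, n = 3), at 121, 119 and 125 CPM in CycA dsRNA libraries (122 ± 3.41, n = 3) and at 236, 238 and 223 CPM in Myb dsRNA libraries (232 ± 8.12, n = 3). The Myb dsRNA libraries thus stood far above all others, and the lowest CycA dsRNA library was just above the highest control library, while the second control library was the lowest of all 9. In Myb dsRNA iECs Caf1-180 was upregulated by 1.10 on the log2 scale (SE 0.066, adjusted p = 7.41e-09). In CycA dsRNA iECs the log2 fold change was 0.17 (SE 0.067, adjusted p = 0.0316), under the fold threshold, and it was 0.074 (adjusted p = 0.155) with the trend with gene length removed. In the direct comparison Caf1-180 was lower in CycA dsRNA iECs by a log2 fold change of -0.93 (SE 0.066, adjusted p = 1.46e-08).

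Caf1-105 (FBgn0033526, chromosome 2R, 10466001 to 10468540, minus strand) was the least abundant of the 7 mRNAs per length, at 35.0, 31.4 and 32.0 CPM in control libraries (32.8 ± 1.95, n = 3). CycA dsRNA libraries held 31.2, 29.3 and 28.1 CPM (29.5 ± 1.58, n = 3) and Myb dsRNA libraries 49.7, 50.8 and 46.1 CPM (48.9 ± 2.44, n = 3). The highest CycA dsRNA library nearly touched the lowest control library, while the Myb dsRNA libraries were clear of both. Caf1-105 was upregulated in Myb dsRNA iECs (log2 fold change 0.57, SE 0.057, adjusted p = 1.29e-06), and in CycA dsRNA iECs its log2 fold change was -0.16 (SE 0.059, adjusted p = 0.0276), under the fold threshold. The direct comparison gave -0.73 (SE 0.058, adjusted p = 4.77e-08).

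Caf1-55, which also serves other chromatin complexes, was measured for comparison as part of a list of chaperones. It was at 204.5, 211 and 197 CPM in control, 184, 175 and 174 CPM in CycA dsRNA and 290.4, 274 and 258 CPM in Myb dsRNA libraries. Its order of groups was that of Caf1-105. Its log2 fold changes were -0.20 (SE 0.050, adjusted p = 0.00253) in the CycA knockdown and 0.42 (SE 0.050, adjusted p = 6.45e-06) in the Myb knockdown, neither of them called, and -0.62 (SE 0.050, adjusted p = 5.45e-08) between them.

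The large and middle subunits were also compared within libraries, where reads of Caf1-180 outnumbered those of Caf1-105 by 3.36, 3.00 and 3.49 times in control, by 3.88, 4.05 and 4.46 times in CycA dsRNA and by 4.75, 4.68 and 4.83 times in Myb dsRNA libraries. This ratio does not depend on how libraries are scaled, and its groups did not overlap. On the log2 scale its mean was 1.71 ± 0.12 in control, 2.04 ± 0.10 in CycA dsRNA and 2.25 ± 0.023 in Myb dsRNA libraries (SD, n = 3), which is 0.33 and 0.54 above control in the iECs. The exact two-sided permutation test of 3 against 3 libraries gave p = 0.1 in each of the 3 comparisons, the smallest value it can give, and 0.112 after adjustment over the 9 ratio tests made. A trend with gene length within a library can still move such a ratio, and with that trend subtracted, an alternative added after the data were seen, the differences from control were 0.26 and 0.46, again without overlap.

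The chaperone gene asf1 (FBgn0029094, chromosome 3L, 19618894 to 19620398, plus strand) was at 117, 122 and 111 CPM in control libraries (116.5 ± 5.46, n = 3). It was at 132, 126 and 128 CPM in CycA dsRNA libraries (129 ± 3.26, n = 3) and at 174, 163 and 167 CPM in Myb dsRNA libraries (168 ± 5.33, n = 3). The 3 groups were in separate ranges, control lowest and Myb dsRNA highest. It was upregulated in Myb dsRNA iECs (log2 fold change 0.53, SE 0.045, adjusted p = 2.8e-07), a value near the threshold, and the call was lost without the third control library (0.47) or without the first Myb dsRNA library (0.48), and under a replicate block by the file numbers of the descriptions (0.4961). In CycA dsRNA iECs the log2 fold change was 0.14 (SE 0.045, adjusted p = 0.0113). The iECs differed from each other by -0.39 (SE 0.045, adjusted p = 2.94e-06), under the fold threshold.

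His2Av (FBgn0001197, chromosome 3R, 26866929 to 26869220, plus strand) encodes the only H2A variant of the fly, which serves in transcription and, once phosphorylated, in the response to DNA breaks. Control libraries held 334, 356 and 343 CPM (344 ± 10.97, n = 3), CycA dsRNA libraries 247, 237 and 241 CPM (242 ± 5.165, n = 3) and Myb dsRNA libraries 453, 438 and 453 CPM (448 ± 8.54, n = 3). Replicates lay close together and the groups were widely separated, with CycA dsRNA below and Myb dsRNA above control. In CycA dsRNA iECs His2Av was downregulated (log2 fold change -0.51, SE 0.043, adjusted p = 8.14e-08). That value sits at the threshold, and the call was lost under 8 of 20 other settings. These were the fits without the second control library (-0.49) or the second CycA dsRNA library (-0.4995), and that with the trend with gene length removed (-0.38). The others were DESeq2 (-0.4992), RLE (-0.4991) or upper-quartile scaling (-0.48), a minimum count of 50 (-0.45) and a glmTreat test against the threshold. In Myb dsRNA iECs the log2 fold change was 0.38 (SE 0.043, adjusted p = 4.34e-06), under the fold threshold, and between the iECs it was -0.89 (SE 0.043, adjusted p = 2.4e-10).

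H3.3 is encoded by His3.3A and His3.3B, whose proteins are the same in the fly. His3.3A (FBgn0014857, chromosome 2L, 5055058 to 5056149, plus strand) was at 205, 210 and 191.5 CPM in control (202 ± 9.555, n = 3), 153, 149 and 129 CPM in CycA dsRNA (144 ± 12.85, n = 3) and 271, 253.5 and 256 CPM in Myb dsRNA libraries (260.3 ± 9.65, n = 3). The groups did not overlap, and the third CycA dsRNA library was the lowest, as for Slbp. Its log2 fold change in CycA dsRNA iECs was -0.49 (SE 0.061, adjusted p = 4.74e-06), just short of the fold threshold, and it was past that threshold without the third control library (-0.57), the first (-0.54) or second (-0.52) CycA dsRNA library or the first or second Myb dsRNA library (-0.53 for each). With the trend with gene length removed it was -0.32. In Myb dsRNA iECs it was 0.37 (SE 0.060, adjusted p = 0.000137), also under the threshold, and the direct comparison called it lower in CycA dsRNA iECs (-0.86, SE 0.061, adjusted p = 1.51e-08).

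His3.3B (FBgn0004828, chromosome X, 9152523 to 9156669, minus strand) was at 1093, 1071 and 1043 CPM in control (1069 ± 24.6, n = 3), 1109, 1133 and 1192 CPM in CycA dsRNA (1145 ± 43.0, n = 3) and 1386, 1373 and 1414 CPM in Myb dsRNA libraries (1391 ± 21.4, n = 3). CycA dsRNA libraries began just above the highest control library, and the Myb dsRNA libraries were the highest. In the reported setting it was the only one of the 7 that did not pass the adjusted p in CycA dsRNA iECs. Its log2 fold change there was 0.10 (SE 0.048, 95% interval -0.0043 to 0.20, adjusted p = 0.0796). That interval does not reach the fold of His3.3A in the same libraries. Under some other settings Caf1-105 did not pass and His3.3B did. Their adjusted p-values were 0.0541 and 0.015 with DESeq2, and 0.0649 and 0.0291 with upper-quartile scaling in edgeR. At a minimum count of 50 in edgeR they were 0.144 and 0.00901. His3.3B thus passed or failed with the setting. In Myb dsRNA iECs its log2 fold change was 0.38 (SE 0.048, adjusted p = 1.33e-05), and between the iECs -0.28 (SE 0.048, adjusted p = 0.000127), both under the fold threshold.

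The fold changes of the 2 H3.3 genes were compared through their ratio within each library. His3.3A gave 15.8, 16.4 and 15.5% of the reads of both genes in control libraries (15.9 ± 0.456, n = 3), 12.1, 11.6 and 9.78% in CycA dsRNA libraries (11.2 ± 1.244, n = 3) and 16.4, 15.6 and 15.3% in Myb dsRNA libraries (15.8 ± 0.542, n = 3). The CycA dsRNA libraries were apart from both other groups, which overlapped. The log2 ratio of His3.3A to His3.3B counts had a mean of -2.40 in control and -2.996 in CycA dsRNA libraries, a difference of -0.59 (exact two-sided permutation test, p = 0.1, the smallest 3 against 3 libraries can give, and 0.112 after adjustment over 9 tests), and differed by -0.014 between Myb dsRNA and control libraries (exact p = 0.7). With the trend with gene length subtracted, the difference in CycA dsRNA libraries was smaller, at -0.39, still without overlap (exact p = 0.1), and that in Myb dsRNA libraries was 0.11, with overlap (exact p = 0.2). Summed over both genes, H3.3 reads were at 1271 ± 32.3 CPM in control, 1289 ± 30.2 CPM in CycA dsRNA and 1651 ± 22.9 CPM in Myb dsRNA libraries (SD, n = 3). This sum of reads in CycA dsRNA iECs lay within the spread of the control, and that in Myb dsRNA iECs was above it. It gives more weight to His3.3B, the longer gene (2552 against 1002 exonic bases), and a sum per length was not taken. Per kilobase of exon, His3.3A was at 202 CPM in control and 144 in CycA dsRNA libraries, and His3.3B at 419 and 449. Scaled by length, the share from His3.3A was 32.5 ± 0.747% in control, 24.3 ± 2.32% in CycA dsRNA and 32.3 ± 0.89% in Myb dsRNA libraries.

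**Figure D2:**
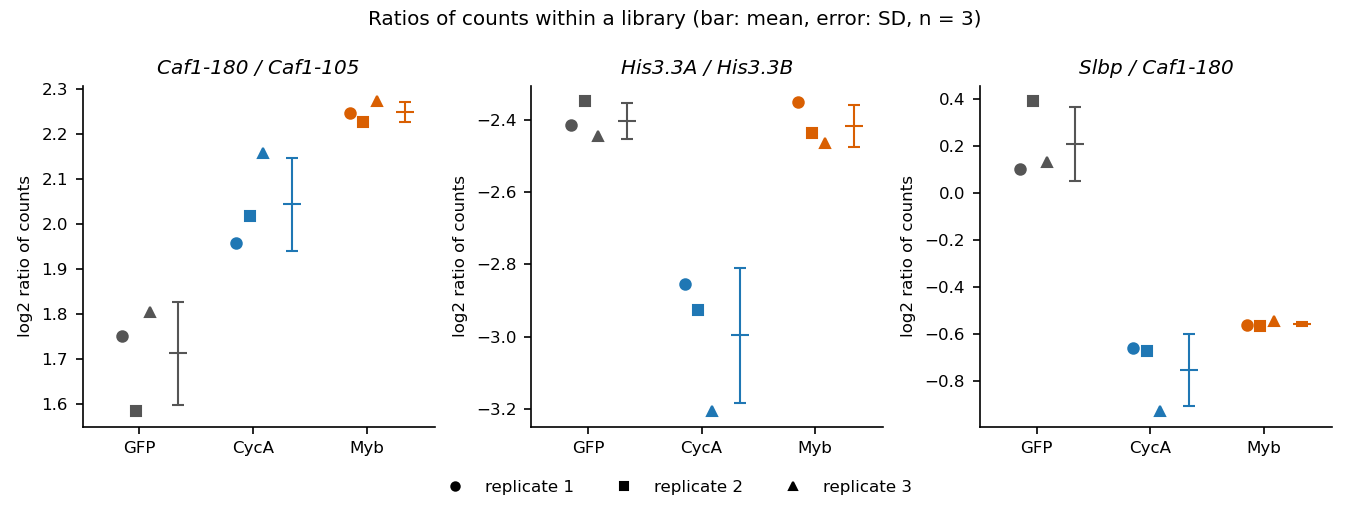
Log2 ratio of the counts of a pair of genes within each library (vertical axes, which do not start at 0), for 3 pairs and the 3 dsRNA groups, with the mean and SD (n = 3). The ratio of His3.3A to His3.3B is low in CycA dsRNA libraries alone (mean -2.996, against -2.40 and -2.42), whereas those of Caf1-180 to Caf1-105 and of Slbp to Caf1-180 are apart from control in both kinds of iECs.

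Slbp and Caf1-180 were compared as a pair with unlike roles, one in histone mRNA and one in the placing of histones. Reads of Slbp outnumbered those of Caf1-180 in control libraries, with ratios of 1.07, 1.31 and 1.10, and were fewer in CycA dsRNA libraries, with 0.633, 0.627 and 0.525, and in Myb dsRNA libraries, with 0.678, 0.676 and 0.684. The ratio was below control in both kinds of iECs, by -0.96 and -0.77 on the log2 scale (exact p = 0.1 for each, 0.112 adjusted over 9 tests), and by -0.71 and -0.58 with the trend with gene length subtracted. In CycA dsRNA iECs Slbp was the gene of the pair with the larger change, and in Myb dsRNA iECs Caf1-180 was.

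Without a fold threshold, 6 of the 7 genes had, after CycA knockdown, an adjusted p under 0.05, with 2 higher (Caf1-180 and asf1) and 4 lower (Slbp, Caf1-105, His2Av and His3.3A), against 34.8% higher and 36% lower among all genes. Those of Caf1-180, Caf1-105 and asf1 lay above 0.05 without certain single libraries, reaching 0.122 and 0.25 for Caf1-180 and asf1 without the second and the third control library and 0.116 for Caf1-105 without the first. The median log2 fold change of the 7 was -0.16, against 0.00 over all genes tested (-0.00037). None of the 7 overlapped with control in CPM, and neither did 72.5% of all genes tested.

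After Myb knockdown, all 7 were higher with an adjusted p under 0.05 where the fold was set aside, as were 28.7% of all genes. The 4 genes under the fold threshold were close to each other, at log2 fold changes of 0.34 to 0.38. The median of the 7 was 0.38, against 0.0061 over all genes tested. None of the 7 overlapped with control, and neither did 64.3% of all genes.

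Between the 2 kinds of iECs, asf1 and His3.3B were the genes not called, and without a fold threshold all 7 were lower, as were 34.9% of all genes. The median was -0.86, against -0.017 over all genes tested, and again none of the 7 overlapped, as for 72.8% of all genes.

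**Figure D3:**
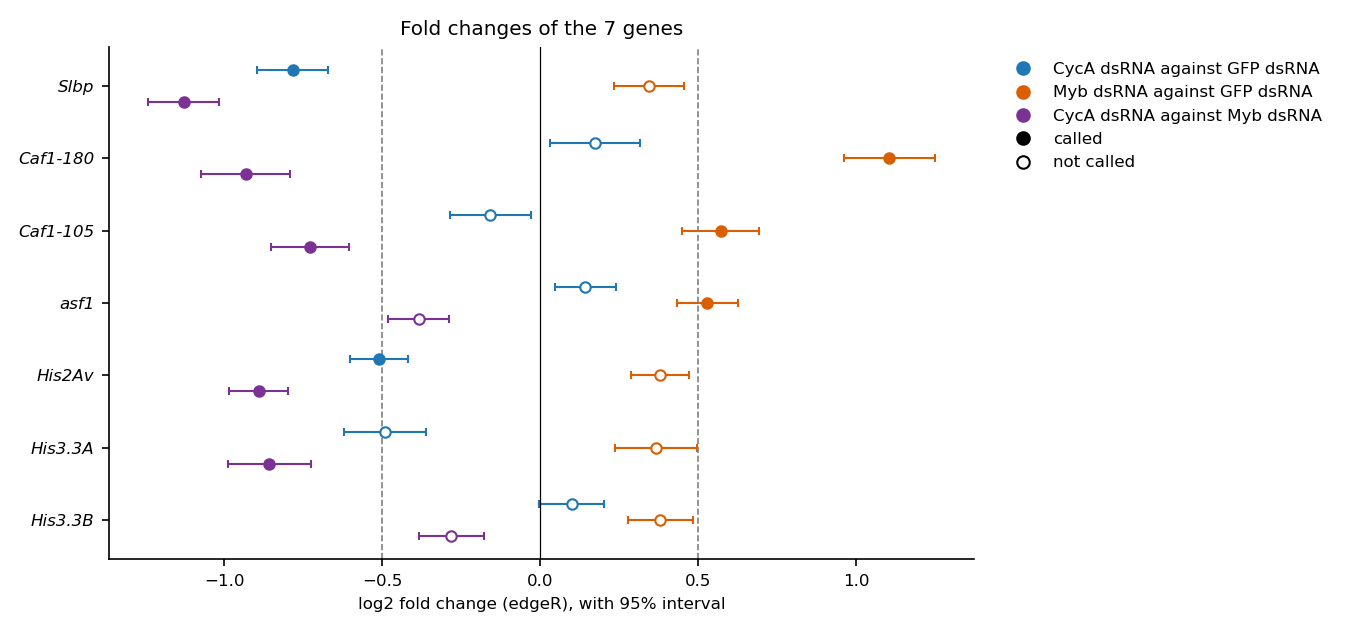
Log2 fold change from edgeR (horizontal axis) of each gene in the 3 comparisons, with its 95% interval. Filled points passed both the fold threshold of 0.5 (dashed lines) and an adjusted p of 0.05. All 7 lie to the right of 0 for Myb dsRNA against GFP dsRNA and to the left for CycA dsRNA against Myb dsRNA, while those for CycA dsRNA against GFP dsRNA run from -0.78 for Slbp to 0.17 for Caf1-180.

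Levels of different genes were compared per length, as CPM per kilobase of exon. In control libraries the order was His3.3B (418.9 ± 9.64 CPM per kilobase), His2Av (281 ± 8.96), His3.3A (202 ± 9.54), Slbp (109.7 ± 1.88), asf1 (77.4 ± 3.63), Caf1-180 (26.7 ± 3.06) and Caf1-105 (13.2 ± 0.787; SD, n = 3). Each gene was apart from the next by more than their spread. The order was the same in Myb dsRNA libraries, with Slbp at 139 ± 3.97 and asf1 at 112 ± 3.54 CPM per kilobase. In CycA dsRNA libraries those neighbors changed places, with asf1 at 85.5 ± 2.17 and Slbp at 63.8 ± 5.08 CPM per kilobase, so that the mRNA of the stem-loop binding protein went from above to below that of the chaperone.

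Across the 9 libraries the log2 CPM of the 7 genes fell into 2 looser groups, given here as a description, since the libraries share the 3 treatments. Slbp, His2Av and His3.3A ran together, with a Pearson correlation of 0.98 for each pair. They are also the shortest of the 7 genes, at 1132, 1224 and 1002 exonic bases, and the correlations were not taken with the trend with gene length removed. The members asf1, His3.3B and Caf1-180 ran together as well, with 0.97 for asf1 and His3.3B, 0.97 for Caf1-180 and His3.3B and 0.95 for Caf1-180 and asf1. Pairs across those groups had lower values, the lowest being 0.51 for Slbp and His3.3B. Caf1-105 lay between, at 0.85 with Slbp and 0.93 with Caf1-180.

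Among 7515 genes averaging 50 counts or more, the pattern over the 9 libraries most like that of each gene was sought by the same correlation. For Slbp these were Rca1, Rbf2 and CG12018 (the first at 0.9965), for Caf1-180 eco, timeout and Mcm10 (0.9943), and for Caf1-105 Orc1, nrv2 and Rif1 (0.9966). For asf1 they were Sans, RnrS and dnk (0.9916), for His2Av CG30383, lin-52 and RanGAP (0.998), for His3.3A PICK1, Pol32 and CG31125 (0.9959), and for His3.3B CG4596, CG17207 and CG17129 (0.985). A like pattern did not mean a like size of change: CG4596 had a log2 fold change of 3.58 in Myb dsRNA iECs, where His3.3B had 0.38.

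All 7 genes have a neighbor within 1000 bases, and those of His2Av and His3.3A are described because genes beside them were called, as was ms(3)76Cc, 103 bases from asf1, after CycA knockdown (log2 fold change 1.137, adjusted p = 0.00373). His3.3A shares 168 exonic bases with Nepl3 on the opposite strand, and the libraries kept strand, but whether reads were counted by strand is not given in the sources used here. Nepl3 was at 157.5 to 165 CPM in control, 124 to 141 CPM in CycA dsRNA and 89.35 to 90.3 CPM in Myb dsRNA libraries, so that in Myb dsRNA iECs it fell (log2 fold change -0.85, adjusted p = 3.22e-09) where the log2 fold change of His3.3A was 0.37. CG14036, on the opposite strand 41 bases from His3.3A, was at 5.11, 6.46 and 5.26 CPM in control, 1.28, 1.51 and 1.42 CPM in CycA dsRNA and 1.83, 1.73 and 1.75 CPM in Myb dsRNA libraries, and it fell in both kinds of iECs (log2 fold changes -1.98 and -1.65, adjusted p = 5.26e-09 and 5.56e-08). SPARC, a secreted matrix protein gene, ends 17 bases past the end of His2Av on the opposite strand with no shared exon, and its log2 fold changes were opposite in sign to those of His2Av, at 0.56 in CycA dsRNA and -0.96 in Myb dsRNA iECs (adjusted p = 7.86e-07 and 1.02e-08). On the other side, 121 bases before the start of His2Av and transcribed away from it, lies ball, which encodes a kinase that phosphorylates histone H2A on nucleosomes. Its mRNA was at 83.3, 82.4 and 80.9 CPM in control, 41.3, 40.2 and 38.8 CPM in CycA dsRNA and 99.5, 99.2 and 87.4 CPM in Myb dsRNA libraries. The order of groups was that of His2Av, with a log2 fold change of -1.04 (SE 0.053, adjusted p = 3.91e-10) in CycA dsRNA iECs and 0.21 (SE 0.050, adjusted p = 0.00223, not called) in Myb dsRNA iECs.

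Other genes of these steps were counted from lists, to be read against the 21.2% higher and 14.1% lower called among all genes after CycA knockdown, 14.9% and 6.78% after Myb knockdown, and, for the direct comparison, 14.5% called lower in CycA dsRNA iECs and 15.4% called higher. Over all genes tested, log2 fold changes rose with gene length (Spearman correlation of 0.213 after CycA and 0.25 after Myb knockdown, 0.044 between the iECs). The listed genes are given in the reported setting only, so how far that trend moved their calls was not tested. Of 11 genes for the histone locus body and for cleavage of histone mRNA 3′ ends, all were tested, and in CycA dsRNA iECs 0 were called in either direction, while 7 had an adjusted p under 0.05, 1 higher and 6 lower (34.8% and 36% of all genes). Myb knockdown called 1 of them higher, mxc, the scaffold of the histone locus body, at 59.9, 46.1 and 56.9 CPM in control and 76.0, 82.3 and 74.7 CPM in Myb dsRNA libraries (log2 fold change 0.51, SE 0.075, adjusted p = 4.77e-05). The Myb dsRNA libraries were above all control libraries, where the groups were apart, in either direction, for 64.3% of all genes tested. Between the iECs, mxc (-0.63) and mute (-0.56), another component of that body, were called lower in CycA dsRNA. The medians of the 11 were -0.12, 0.068 and -0.26 in the 3 comparisons.

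Of 19 other chaperones and assembly factors, all tested, CycA knockdown called 0 higher and 5 lower, where 21.2% and 14.1% of all genes were called. They were Nph (log2 fold change -0.82), a nucleophosmin, Set (-0.68), of the NAP family, Iswi (-0.67), the ATPase of several nucleosome-spacing complexes, Chrac-14 (-0.59), a subunit of such a complex, and Nlp (nucleoplasmin). Their exonic lengths are 818 (Nph), 1169 (Set), 3647 (Iswi), 592 (Chrac-14) and 1080 (Nlp) bases, and the part of the trend with gene length in their falls was not tested. Nph, the one with the largest change, was at 228, 249 and 229.7 CPM in control and 131.5, 128 and 142 CPM in CycA dsRNA libraries, and Iswi at 312, 283 and 305 CPM and 189, 185 and 191.5 CPM. Neither gene overlapped between the groups, and neither did 72.5% of all genes tested. Myb knockdown called 1 higher, Acf (0.61, adjusted p = 1.58e-06), the partner of Iswi, and 0 lower (14.9% and 6.78% of all genes). With the fold set aside, CycA knockdown left 0 of the 19 higher and 14 lower at an adjusted p under 0.05, against 34.8% and 36% of all genes. After Myb knockdown 12 were higher at that level, against 28.7% of all genes, and 1 was lower, against 2683 of the 9231 genes tested. In the direct comparison 9 were lower in CycA dsRNA iECs and 0 higher (14.5% and 15.4% of all genes), with the largest differences at Chrac-14 (-0.93), Acf (-0.91), Iswi (-0.89) and Ssrp (-0.77), a subunit of the chaperone FACT, followed by Nph, yem, Set, dre4 and Caf1-55. The medians of the 19 were -0.27 after CycA knockdown, 0.25 after Myb knockdown and -0.47 between the iECs.

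Of 15 genes of the Domino and Tip60 complexes, which exchange H2A for H2Av, CycA knockdown called 0 higher and 3 lower (21.2% and 14.1% of all genes), namely rept (-0.73, an ATPase), MrgBP (-0.61) and Bap55 (-0.53, an actin-related protein). With the fold set aside, 10 of the 15 had an adjusted p under 0.05 after CycA knockdown, all lower, where 36% of all genes tested were lower at that level. The gene rept was at 197, 190.4 and 194 CPM in control and 119.9, 116 and 116 CPM in CycA dsRNA libraries, without overlap, as for 72.5% of all genes tested. Myb knockdown called 0 of the 15 in either direction (14.9% and 6.78% of all genes), with log2 fold changes from -0.10 to 0.21. Of the 15, 3 had an adjusted p under 0.05, all higher, where 28.7% of all genes tested were higher at that level. Between the iECs 5 were lower in CycA dsRNA and 0 higher (14.5% and 15.4% of all genes), with rept (-0.82), Bap55 (-0.67), MrgBP (-0.58) and DMAP1 (-0.56) ahead of pont. The medians were -0.22, 0.097 and -0.36.

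**Figure D4:**
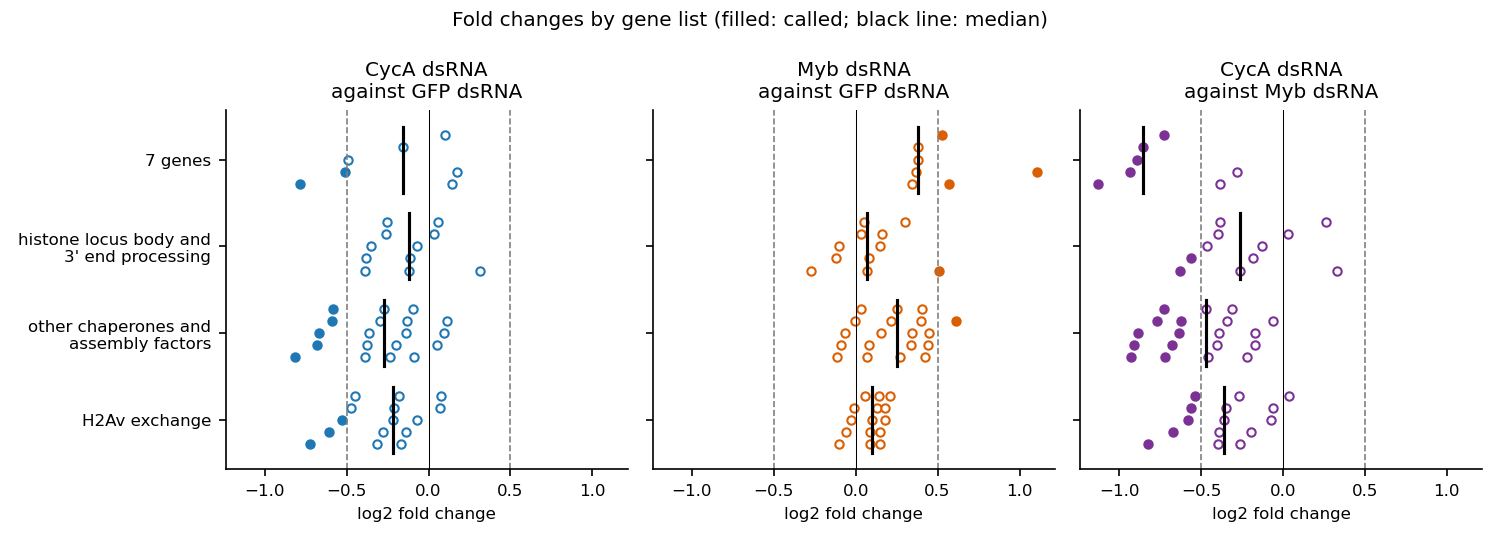
Log2 fold changes (horizontal axes) of the 7 genes and of the members of the 3 other lists in each comparison, one point a gene, filled where called, with the list median as a black line and the fold threshold as dashed lines. Vertical position within a list only spreads the points. The medians of all 4 lists lie below 0 for CycA dsRNA against GFP dsRNA and above 0 for Myb dsRNA against GFP dsRNA.

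Replication-dependent histones could hardly be read from these libraries. The table lists 111 genes of the repeated histone cluster, and 108 of them had 0 counts in all 9 libraries, in libraries that were poly-A selected. How reads from near-identical gene copies were counted is not given in the sources used here. All 111 together had 25, 19 and 7 counts in control, 9, 8 and 11 in CycA dsRNA and 46, 38 and 32 in Myb dsRNA libraries, nearly all from a single His2B gene. These counts do not measure the output of the cluster. Of the other histone genes, His4r, which encodes histone H4 from outside the cluster, was at 259 to 284 CPM in control, 290 to 313 CPM in CycA dsRNA and 273 to 311.5 CPM in Myb dsRNA libraries and was not called (log2 fold changes 0.16 and 0.11). BigH1, an embryonic linker histone, had 36, 29 and 33 counts in control, 73, 113 and 121 in CycA dsRNA and 333, 208 and 290 in Myb dsRNA libraries. Its groups did not overlap, as for 72.5% of all genes tested in CycA dsRNA and 64.3% in Myb dsRNA iECs against control. BigH1 was called higher in both kinds of iECs, with a log2 fold change of 1.75 (SE 0.15, adjusted p = 8.76e-08) and 3.05 (SE 0.13, adjusted p = 1.39e-10), from a low level. The germ line marker vas was also called higher in both kinds of iECs and nos in Myb dsRNA iECs, and their part in this was not tested.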

How the data were processed

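The 9 poly-A selected RNA-Seq libraries of S2 cells were grouped by the dsRNA in their titles. Per the labels and the methods of the study, the authors ran FastQC 0.11.5 on the single-end reads, aligned these with STAR 2.6.1a to Release 6 of the genome and counted exonic reads per gene by featureCounts. The count table they deposited is raw, not normalized by the authors. Their deposited comparison tables hold log2 fold changes and p-values from DESeq2 1.14.1 and were not used.

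Genes were filtered with filterByExpr at a minimum count of 10, scaled by TMM and fitted in edgeR 4.0.16 (R 4.3.3) as 3 groups over 9 libraries. SE is the log2 fold change divided by the root of the F statistic. Ratios of counts (pseudocount 0.5) were compared by exact permutation. Correlations used log2 CPM with a prior count of 2. The procedure was tested on simulated data. Alternatives were DESeq2 1.42.0, other scalings (RLE, upper quartile), filters and thresholds, the 2 groups alone, a replicate block, removal of the trend with gene length and each library left out. A block by the file numbers of the descriptions, and ratios less the length trend of their library, were added after seeing the data. Positions are from the Ensembl BDGP6.54 annotation of the Release 6 assembly, where 98.9% of 17372 matched genes had the exon length of the table, all 7 genes included. Intervals cover the spread between libraries, and depth was 29128930 to 44280452 counts.

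The 7 genes, the lists and the pairs compared by ratio were chosen with earlier results of these data known. Named genes are the 7, CycA and Myb, the called members of each list (at most 4 with values) and the 3 genes most correlated with each of the 7. Caf1-55, the marker genes, His4r, Nepl3, CG14036, ms(3)76Cc, Bap111, SPARC, ball and BigH1 were named after their values were seen.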

Additional observations from a re-analysis of the deposited data

How the results depend on the processing

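Slbp stayed downregulated in CycA dsRNA iECs under all 20 alternatives (log2 fold change -0.83 to -0.64) and Caf1-180 upregulated in Myb dsRNA iECs (1.01 to 1.17), and no fold change of the 7 genes reversed. The count of 2 called after CycA knockdown was 1 with DESeq2, RLE or upper-quartile scaling, a minimum count of 50, a glmTreat test against the threshold or the length trend removed, and 6 without a fold threshold. Leaving out 1 library gave 1 (without the second control library) to 3. Where the count was 1, His2Av was the gene no longer called. For His2Av the log2 fold change ran from -0.55 to -0.38 and for His3.3A from -0.57 to -0.32. The count of 3 called after Myb knockdown was 1 with glmTreat, which kept Caf1-180, and 7 without a fold threshold. That of 5 between the iECs was within 1.5 times of it under every alternative. Over all genes, the 3255 calls after CycA knockdown became 6530 without a fold threshold. The 2005 after Myb knockdown became 5329 without it, 1280 at a minimum count of 50 and 1181 with glmTreat. The 2765 between the iECs became 6123 and 1830 without the threshold and with glmTreat. The causes of these shifts beyond the threshold itself were not tested. With the length trend of each library subtracted, the log2 ratio of His3.3A to His3.3B differed from control by -0.39 in CycA dsRNA and 0.11 in Myb dsRNA iECs, and that of Slbp to Caf1-180 by -0.71 and -0.58. The ratio of His3.3A to His3.3B in Myb dsRNA iECs thus changed sign, as it did without single libraries (-0.047 to 0.013).

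Replicate numbers from the titles paired the libraries weakly at most. Correlations of deviations ran from -0.047 to 0.097 between libraries of the same number and from -0.088 to 0.036 between those of different number. The file numbers in the descriptions give 4 for the third CycA and Myb dsRNA libraries and 3 for the third control library. With a replicate block the calls were 3241, 1999 and 2758 over all genes and 2, 3 and 5 among the 7, and with a block by file numbers 3173, 1902 and 2747, and 2, 2 and 5. With 3 libraries a group, fold changes near 0.5 could not be placed firmly on either side of the threshold, and the exact tests could not go below 0.1. BigH1 and the histone cluster were limited by low counts.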
